A study of Mus musculus with 9 samples.

Results

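The acute phase proteins described here are the products of 10 mouse genes: the serum amyloid A genes Saa1, Saa2 and Saa3, the orosomucoid genes Orm1 and Orm2, and Lcn2, Crp, Hp, Hpx and Lbp. They were taken by gene symbol from a table of 28956 gene symbols. All 10 were found, and all 10 passed the filter on low counts among 17582 genes tested. RNA from pieces of whole liver of C57BL6J mice aged 8 weeks was sequenced in 9 libraries, 3 per group. All mice had been given APAP (acetaminophen, an analgesic that injures the liver at high dose) at 300 mg/kg into the peritoneum, and the series title gives a time of 24 h. In the APAP_MSC group 500000 cells labelled MSC were infused into a vein 90 min after APAP, in the APAP_HDF group 500000 cells labelled HDF were infused in the same way, and the APAP group received APAP without cells. The labels do not give the source of either cell type, and livers without APAP were not analysed here, so every value below compares injured livers with each other. The labels do not say that the libraries came from separate animals, so p-values measure only the spread between these libraries.

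The acute phase response is the change in the proteins that the liver secretes during infection or tissue damage. Cytokines such as interleukin 6 and interleukin 1 act on hepatocytes through the transcription factors STAT3, NF-kB and C/EBP, often together with glucocorticoids, and raise the transcription of positive acute phase genes while negative acute phase genes such as albumin decline. Serum amyloid A proteins travel on high density lipoprotein, orosomucoids bind drugs and modulate immune cells, lipocalin 2 withholds iron-loaded siderophores from bacteria, C-reactive protein and lipopolysaccharide binding protein recognise microbial surfaces, and haptoglobin and hemopexin capture free hemoglobin and heme.

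Depth was 53267231 to 63175573 counts per library. The labels name the cell type as hepatocytes although the protocol describes whole liver, and hepatocyte markers dominated, with 86892 to 116061 summed CPM (counts per 1000000 counts of a library) over 12 markers and all 12 detected in every library. Between libraries of a group, counts differed by more than sampling noise, with a median chi-square over genes of 3.71 to 9.66. The column headers give the group of a library but no replicate number, so libraries are numbered by column order, and numbers shared between groups mean nothing. In bulk tissue, fewer cells of a type and less RNA per cell cannot be told apart. Levels below are CPM with library sizes scaled by the trimmed mean of M-values (TMM), and a gene is called changed at an adjusted p under 0.05 in edgeR's quasi-likelihood test with Benjamini-Hochberg adjustment over all genes tested.

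Of the 10 acute phase genes, 1 passed the test in any comparison: Orm2 was higher in APAP_MSC than in APAP_HDF livers. In APAP_MSC against APAP livers 0 of 10 members passed, where 6.38% of all tested genes did, and 1 member (Orm2) had an unadjusted p under 0.05, where 22.9% of all genes did. DESeq2 and limma-voom also called 0 members there. In APAP_HDF against APAP livers 0 of 10 members passed and 0 had an unadjusted p under 0.05, where 0% of all genes passed in edgeR and 8.78% had such an unadjusted p, and DESeq2 and limma-voom called 0 members. In APAP_MSC against APAP_HDF livers 1 of 10 members passed, where 8.89% of all genes did, and 2 had an unadjusted p under 0.05, where 25.7% did, while DESeq2 called 2 (Orm1 and Orm2) and limma-voom 1 (Orm2). The share of members called was therefore near the background in each comparison. The joint edgeR test of all 3 groups called 0 of 10 members, against 7% of all genes. Its smallest adjusted p was 0.0816, for Orm2, the 1 member with an unadjusted p under 0.05, and no other tool was run for it. All comparisons with APAP share the same 3 APAP libraries.

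Counted by library instead, 3 of 10 members (Saa1, Saa2 and Orm2) were higher in every APAP_MSC library than in every APAP library, against 13.7% of all genes. In APAP_MSC against APAP_HDF livers 6 of 10 members (Saa1, Saa2, Orm1, Orm2, Hp and Hpx) lay above in this way, against 16.8% of all genes. No member lay wholly below in either comparison, where 14.7% of all genes did in the first and 16.4% in the second. In APAP_HDF against APAP livers all 10 members overlapped, where 11.7% of all genes did not.

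Some markers of 2 liver cell types were also higher in the APAP_MSC livers, but not all markers of either list were. Of 12 hepatocyte markers, 3 passed the edgeR test as higher and 0 as lower in APAP_MSC against APAP_HDF livers, with a median log2 fold change of 0.51 beside 0.56 for the 10 members. Against APAP livers, 2 of the 12 passed as higher in APAP_MSC and 0 as lower, with a median of 0.36 beside 0.46 for the members. Below 0 without passing were Alb (-0.02), Apoa1 (-0.08), Apob (-0.55), Tat (-0.24) and Hnf4a (-0.01) against APAP livers. Against APAP_HDF livers these were Alb (-0.06), Apoa1 (-0.02), Apob (-0.44) and Hnf4a (-0.03). The remaining hepatocyte markers were above 0 in each comparison. The sums of the 12 hepatocyte markers, to which Alb contributes most, overlapped, at 96763 to 104479 CPM in APAP_MSC, 86892 to 114238 CPM in APAP_HDF and 87160 to 116061 CPM in APAP livers. Of 6 cholangiocyte markers, 4 passed as higher and 0 as lower in APAP_MSC against APAP_HDF livers (median 1.02), and 0 passed in APAP_MSC against APAP livers (median 0.61), where 3 had an unadjusted p under 0.05. Sox9 was lower without passing, at -0.63 against APAP_HDF livers (edgeR adjusted p = 0.061) and -0.22 against APAP livers (adjusted p = 0.548). The other cholangiocyte markers were above 0 in both comparisons. The 6 markers summed to 116 to 132 CPM in APAP_MSC, 99.5 to 104 CPM in APAP_HDF and 94.98 to 149 CPM in APAP livers, and all 6 had counts in every library. The part of these cells in the members' values was not tested.

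**Figure D1:**
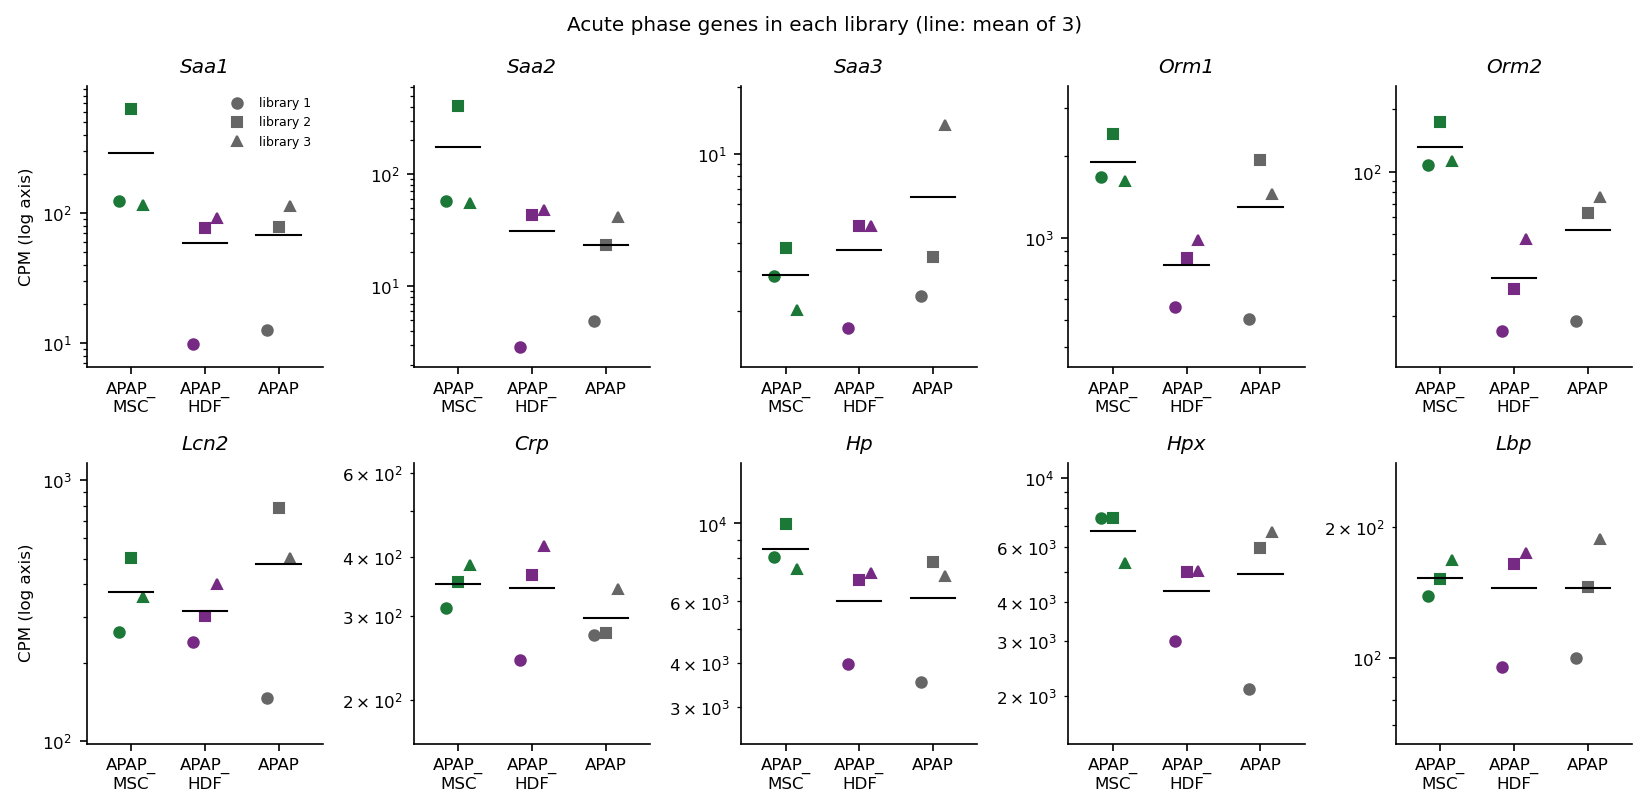
CPM (log axes) of each acute phase gene in every library, with APAP_MSC, APAP_HDF and APAP from left to right and a line at the mean of 3. Library 1 of APAP_HDF and library 1 of APAP lay lowest in their groups for all 10 genes, and Saa1, Saa2 and Orm2 did not overlap between APAP_MSC and APAP.

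Saa1 and Saa2 encode the 2 inducible serum amyloid A proteins that the liver secretes, and they were the most variable members. Saa1 had 125, 631 and 116 CPM in the APAP_MSC libraries, 9.82, 76.6 and 91.5 CPM in the APAP_HDF libraries and 12.5, 78.7 and 114 CPM in the APAP libraries. Every APAP_MSC library was above every other library, but library 3 of APAP_MSC lay barely above library 3 of APAP, and library 2 of APAP_MSC was the highest by far. For Saa1 the log2 fold change was 2.09 ± 1.11 (SE) in APAP_MSC against APAP livers (edgeR adjusted p = 0.32), -0.21 ± 1.08 in APAP_HDF against APAP livers (adjusted p = 0.973) and 2.29 ± 1.12 in APAP_MSC against APAP_HDF livers (adjusted p = 0.25). None of these passed, and the value in APAP_MSC against APAP livers was 0.83 without library 2 of APAP_MSC. Without that library, library 1 of APAP and library 1 of APAP_HDF it was 0.33 ± 0.18 (edgeR adjusted p = 0.39).

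Saa2 showed a similar pattern over a wider range. It had 57.0, 406 and 55.6 CPM in APAP_MSC, 2.85, 42.8 and 48.0 CPM in APAP_HDF and 4.89, 23.1 and 41.6 CPM in APAP libraries. The APAP_MSC libraries again lay above all others, and the lowest APAP_HDF and APAP libraries lay far below the other libraries of their groups. As a log2 fold change, Saa2 stood at 2.89 ± 1.28 in APAP_MSC against APAP livers (edgeR adjusted p = 0.231), 0.42 ± 1.21 in APAP_HDF against APAP livers (adjusted p = 0.946) and 2.47 ± 1.25 in APAP_MSC against APAP_HDF livers (adjusted p = 0.266). The interval for the first ran from -0.09 to 5.88, so the libraries allow anything from no difference to a very large one. Without library 2 of APAP_MSC the first value was 1.29 and the third 0.87.

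Saa1 and Saa2 are close copies, and their reads and their promoters are shown because both bear on how far the pair can be told apart. The coding sequences, taken from the GRCm38 gene models, were 95.1% identical over 366 bases. The longest identical stretch within the coding sequences, bases 286 to 358 of that of Saa1, spans 73 bases and leaves a read of that length without a unique origin:
Saa1 and Saa2 shared stretch: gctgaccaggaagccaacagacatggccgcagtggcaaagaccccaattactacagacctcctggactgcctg
Over whole transcripts, which are longer than the coding sequences, 4.67% of the 75-base windows of Saa1 also occurred in Saa2 transcripts. Of those of Saa2, 0.346% occurred in Saa1 transcripts, and of all 100-base windows 0% were shared. With both genes summed into 1 feature, the log2 fold change was 2.34 ± 1.13 in APAP_MSC against APAP livers (edgeR adjusted p = 0.269), -0.02 ± 1.08 in APAP_HDF against APAP livers (adjusted p = 0.999) and 2.36 ± 1.13 in APAP_MSC against APAP_HDF livers (adjusted p = 0.238). How the authors' counting treated reads that fit both copies is not given in the sources used here.

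The 250 bases before each start, from RefSeq on GRCm38.p6, lie at chr7:46742981-46743230 on the minus strand for Saa1 and at chr7:46751583-46751832 on the plus strand for Saa2. They are shown because the pair varied much alike over the libraries, and capitals mark a match to the C/EBP motif:
Saa1: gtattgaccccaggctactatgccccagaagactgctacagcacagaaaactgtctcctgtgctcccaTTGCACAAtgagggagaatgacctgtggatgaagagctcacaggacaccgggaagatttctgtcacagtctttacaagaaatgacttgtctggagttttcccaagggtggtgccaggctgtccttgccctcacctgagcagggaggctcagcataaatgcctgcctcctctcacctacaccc
Saa2: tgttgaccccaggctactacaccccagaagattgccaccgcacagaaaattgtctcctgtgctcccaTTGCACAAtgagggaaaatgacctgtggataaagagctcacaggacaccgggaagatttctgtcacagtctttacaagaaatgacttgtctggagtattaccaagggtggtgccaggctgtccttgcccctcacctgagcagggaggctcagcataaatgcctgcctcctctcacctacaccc
The windows were 94.8% identical and both held TTGCACAA, at 182 to 175 bases before the Saa1 start and at 183 to 176 bases before the Saa2 start. The C/EBP motif was searched as TTGCNNAA on both strands and occurred in 9.56% of 32851 promoter windows of the same length. It was present in 6 of the 7 members with a promoter entry (Saa1, Saa2, Saa3, Orm2, Lcn2 and Hpx) and not in the Crp window. The STAT motif TTCNNNGAA (7.02% of all windows) and the NF-kB motif (3.9% of all windows) had 0 matches among the 7. Such matches describe letters in a window and show no binding. At these background rates, 0 matches among 7 windows do not show that a site is lacking. Orm1, Hp and Lbp had no entry.

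Saa3, which in the mouse is made largely outside hepatocytes, in macrophages and fat, was the rarest member. It had 2.86, 3.80 and 2.03 CPM in APAP_MSC, 1.68, 4.79 and 4.78 CPM in APAP_HDF and 2.33, 3.49 and 13.4 CPM in APAP libraries. A single APAP library stood high and the groups otherwise overlapped. The log2 fold change in APAP_MSC against APAP livers was -1.17 ± 0.67 (edgeR adjusted p = 0.35), and without library 3 of APAP it was -0.01. Saa3 in APAP_HDF against APAP livers was at -0.80 ± 0.65 (edgeR adjusted p = 0.744), and in APAP_MSC against APAP_HDF livers it was -0.37 ± 0.69 (adjusted p = 0.782).

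The orosomucoids, also called alpha-1-acid glycoproteins, are plasma carriers of basic drugs. Orm2 had 108, 173 and 113 CPM in APAP_MSC, 17.0, 27.1 and 47.3 CPM in APAP_HDF and 19.1, 63.1 and 75.2 CPM in APAP libraries. All 3 APAP_MSC libraries were above the other 6, and each was more than the highest APAP_HDF library by a wide margin. Orm2 was higher in APAP_MSC than in APAP_HDF livers, with means of 131 ± 36.1 and 30.5 ± 15.4 CPM (SD, n = 3 each) and a log2 fold change of 2.11 ± 0.54 (SE, 95% interval 0.88 to 3.33, edgeR adjusted p = 0.0475). This call sat close to the threshold: it was lost in 8 of 9 fits that left out a single library, over which the adjusted p ran from 0.0173 (without library 1 of APAP) to 0.147 (without library 2 of APAP_MSC) and the log2 fold change from 1.83 to 2.59. The value in APAP_MSC against APAP livers was 1.32 ± 0.52 (edgeR adjusted p = 0.176, unadjusted 0.0341), and in APAP_HDF against APAP livers it was -0.79 ± 0.52 (adjusted p = 0.684).

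Orm1, the more abundant copy, had 1677, 2410 and 1618 CPM in APAP_MSC, 562, 847 and 986 CPM in APAP_HDF and 505, 1937 and 1453 CPM in APAP libraries. The APAP_MSC libraries lay above the APAP_HDF libraries without overlap, whereas library 2 of APAP fell within the APAP_MSC range. The log2 fold change in APAP_MSC against APAP_HDF livers was 1.25 ± 0.43 (edgeR adjusted p = 0.11) and did not pass, though with library 1 of APAP and library 1 of APAP_HDF left out it was 1.06 ± 0.20 and passed (adjusted p = 0.0196). Orm2 in the same fit was at 1.82 ± 0.32 (edgeR adjusted p = 0.0271), and 7.82% of all genes passed in it. Those libraries were picked after they were seen to be low for the members, so leaving them out narrows the spread by choice. The pass in this fit is therefore no support for a difference. With library 1 of APAP_HDF alone left out 0 members passed, and with library 1 of APAP alone left out 2 did. In APAP_MSC against APAP livers Orm1 had a value of 0.55 ± 0.43 (edgeR adjusted p = 0.505), and in APAP_HDF against APAP livers -0.70 ± 0.43 (adjusted p = 0.66).

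The Orm2 promoter window is printed because Orm2 was the member that passed the test. It lies at chr4:63362199-63362448 on the plus strand of GRCm38.p6 (RefSeq), and capitals mark, in order, a match to the glucocorticoid receptor hexamer and one to the C/EBP motif:
Orm2: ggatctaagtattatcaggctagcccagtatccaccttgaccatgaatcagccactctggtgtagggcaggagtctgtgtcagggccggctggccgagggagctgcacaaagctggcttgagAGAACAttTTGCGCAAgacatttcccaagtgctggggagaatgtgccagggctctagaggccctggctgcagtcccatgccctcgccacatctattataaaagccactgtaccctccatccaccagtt
The hexamer AGAACA, 128 to 123 bases before the start, and TTGCGCAA, 120 to 113 bases before it, did not overlap. On both strands AGAACA occurred in 16.1% of all windows and in 2 of the 7 members (Orm2 and Crp). Orm1 and Orm2 coding sequences were 89.9% identical over 621 bases. The longest identical stretch within these coding sequences, bases 442 to 545 of that of Orm1, spans 104 bases and shows where reads could be assigned to either copy:
Orm1 and Orm2 shared stretch: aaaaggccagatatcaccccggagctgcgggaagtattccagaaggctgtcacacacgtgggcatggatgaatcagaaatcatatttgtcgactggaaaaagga
Of all 75-base windows 13.8% were shared between the 2 transcripts, and of all 100-base windows 6.95%. Orm1 had many times the reads of Orm2, and the part of misassigned reads in the Orm2 values was not tested. With Orm1, Orm2 and the third gene Orm3 summed, the log2 fold change in APAP_MSC against APAP_HDF livers was 1.29 and did not pass (edgeR adjusted p = 0.101).

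The share of Orm2 in the counts of the Orm1 and Orm2 pair was higher in the APAP_MSC livers. It was 6.05%, 6.69% and 6.50% in APAP_MSC, 2.94%, 3.10% and 4.58% in APAP_HDF and 3.64%, 3.15% and 4.92% in APAP libraries. The APAP_MSC shares were tightly grouped and did not overlap with the others, which holds within a library whatever its total. The means were 6.41 ± 0.327% in APAP_MSC, 3.54 ± 0.903% in APAP_HDF and 3.90 ± 0.912% in APAP livers (SD, n = 3 each). In a two-sided exact permutation test APAP_MSC against either of the others gave p = 0.1, the smallest that 3 against 3 libraries allow (adjusted p = 0.2 over the 6 pair comparisons made), so the design cannot reach 0.05. The share of Saa2 in the Saa1 and Saa2 pair was 31.4%, 39.2% and 32.5% in APAP_MSC, 22.5%, 35.8% and 34.4% in APAP_HDF and 28.1%, 22.7% and 26.8% in APAP libraries. There APAP_MSC lay above APAP without overlap (exact permutation p = 0.1, adjusted p = 0.2) but overlapped with APAP_HDF (exact permutation p = 0.6). These shares were examined after the levels had been seen.

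**Figure D2:**
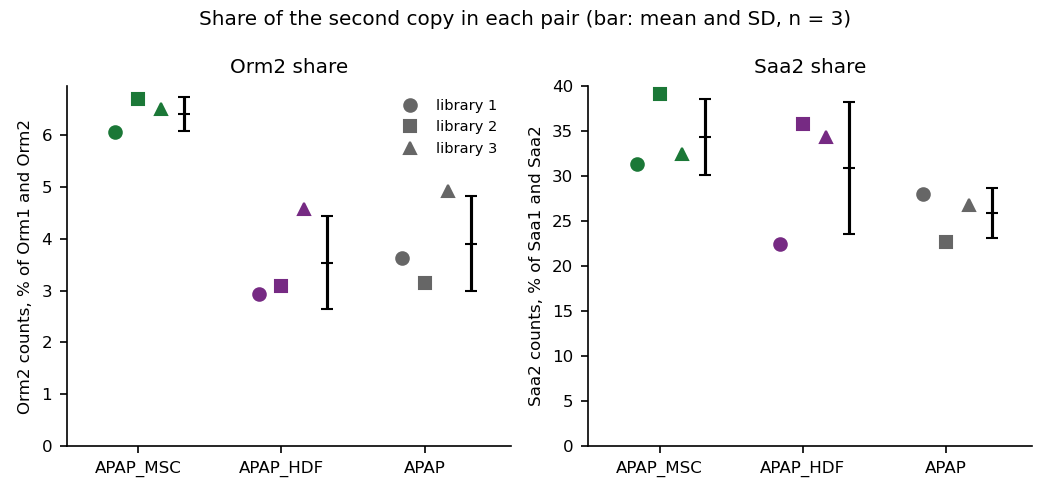
Share of Orm2 counts among Orm1 and Orm2 counts (left, %) and of Saa2 counts among Saa1 and Saa2 counts (right, %) in every library, with the mean and SD of 3 libraries beside each group. The Orm2 share lay between 6.05% and 6.69% in APAP_MSC and at 4.92% or less in all other libraries.

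Lcn2 encodes lipocalin 2, which hepatocytes release in large amounts after injury and which neutrophil granules also hold. It had 263, 506 and 356 CPM in APAP_MSC, 241, 302 and 401 CPM in APAP_HDF and 147, 781 and 504 CPM in APAP libraries. The APAP group spanned the whole range of the other 2 groups, with its lowest and its highest library outside them. Lcn2 had a log2 fold change of -0.35 ± 0.52 in APAP_MSC against APAP livers (edgeR adjusted p = 0.752), -0.60 ± 0.52 in APAP_HDF against APAP livers (adjusted p = 0.756) and 0.25 ± 0.52 in APAP_MSC against APAP_HDF livers (adjusted p = 0.801). The first of these ran from -0.76 without library 1 of APAP to 0.22 without library 2 of APAP. Neutrophil markers were low in all libraries: the 12 markers summed to 3.12 to 4.71 CPM in APAP_MSC, 4.09 to 11.1 CPM in APAP_HDF and 9.84 to 13.0 CPM in APAP livers, and Mpo, Ly6g, Ngp and Ltf were at 0 in 7 of 9 libraries each. Of 7 neutrophil markers tested, 4 passed as lower and 0 as higher in APAP_MSC against APAP livers (median -1.90), where 3.54% and 2.83% of all genes did. The part of neutrophils in the Lcn2 values was not tested.

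Crp and Lbp encode pattern recognition proteins of plasma, and Crp is only a weak acute phase gene in the mouse. Crp had 312, 355 and 384 CPM in APAP_MSC, 243, 366 and 421 CPM in APAP_HDF and 273, 276 and 342 CPM in APAP libraries. The groups overlapped throughout. For Crp the log2 fold change was 0.24 ± 0.18 in APAP_MSC against APAP livers (edgeR adjusted p = 0.489), 0.21 ± 0.18 in APAP_HDF against APAP livers (adjusted p = 0.755) and 0.03 ± 0.18 in APAP_MSC against APAP_HDF livers (adjusted p = 0.938). The 95% interval of the last ran from -0.37 to 0.43, the narrowest among the members.

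Lbp, whose product hands lipopolysaccharide to CD14, had 139, 152 and 168 CPM in APAP_MSC, 94.9, 165 and 175 CPM in APAP_HDF and 100.04, 145 and 188 CPM in APAP libraries. Apart from the low first library of APAP_HDF and of APAP, the values were alike. Fitted log2 fold changes of Lbp were 0.08 ± 0.26 in APAP_MSC against APAP livers (edgeR adjusted p = 0.897), 0.00 ± 0.26 in APAP_HDF against APAP livers (adjusted p = 0.9996) and 0.08 ± 0.26 in APAP_MSC against APAP_HDF livers (adjusted p = 0.884). The intervals allow differences of up to 0.65 in the first and the third of these comparisons.

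Hp and Hpx encode haptoglobin and hemopexin, the scavengers of hemoglobin and heme, and were the most abundant members. Hp had 8030, 9939 and 7429 CPM in APAP_MSC, 3975, 6897 and 7226 CPM in APAP_HDF and 3547, 7769 and 7077 CPM in APAP libraries. Every APAP_MSC library was above every APAP_HDF library, while library 2 of APAP reached into the APAP_MSC range. Hp gave log2 fold changes of 0.47 ± 0.30 in APAP_MSC against APAP livers (edgeR adjusted p = 0.399), -0.02 ± 0.30 in APAP_HDF against APAP livers (adjusted p = 0.989) and 0.49 ± 0.30 in APAP_MSC against APAP_HDF livers (adjusted p = 0.339).

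Hpx had 7458, 7426 and 5319 CPM in APAP_MSC, 2997, 4993 and 5044 CPM in APAP_HDF and 2117, 5958 and 6711 CPM in APAP libraries. Again the APAP_MSC libraries lay above the APAP_HDF libraries and overlapped with the APAP libraries. The log2 fold change was 0.45 ± 0.38 in APAP_MSC against APAP livers (edgeR adjusted p = 0.544), -0.18 ± 0.38 in APAP_HDF against APAP livers (adjusted p = 0.922) and 0.63 ± 0.38 in APAP_MSC against APAP_HDF livers (adjusted p = 0.338). Without library 1 of APAP and library 1 of APAP_HDF these were 0.09 ± 0.15, -0.33 ± 0.17 and 0.43 ± 0.15, and none passed.

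**Figure D3:**
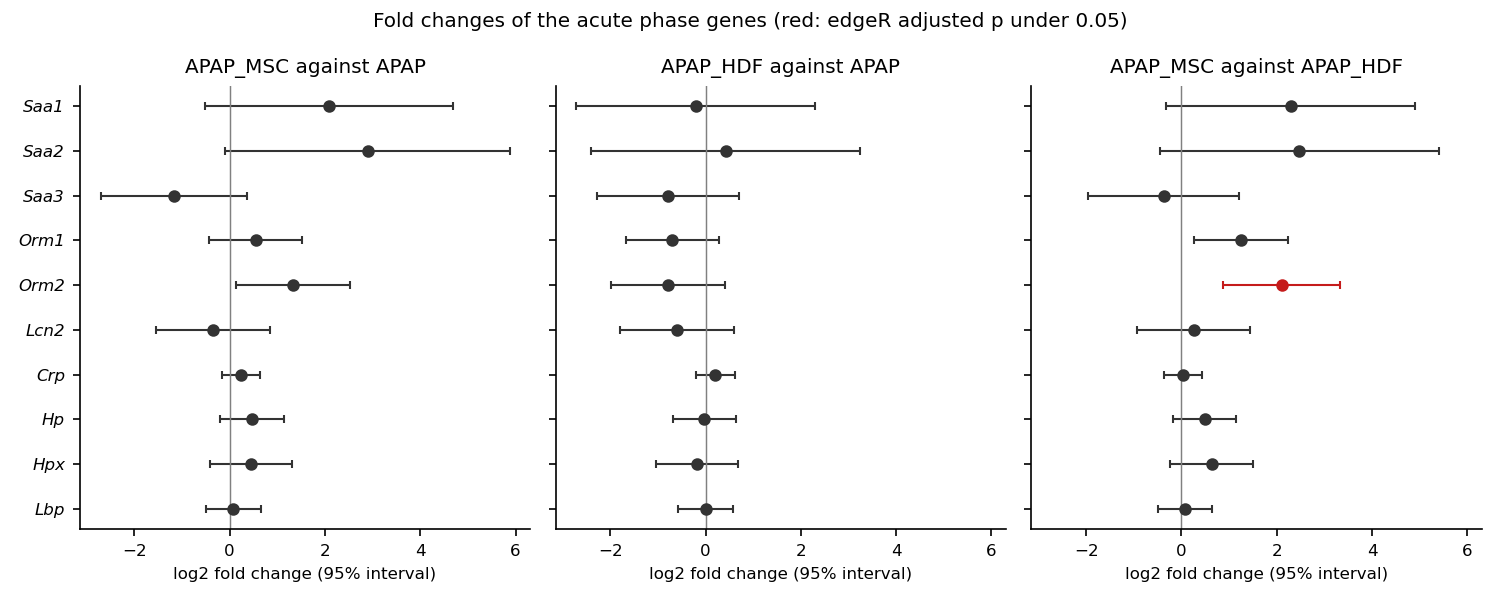
Log2 fold change of each acute phase gene with its 95% interval in the 3 comparisons, from edgeR's quasi-likelihood fit. Orm2 in APAP_MSC against APAP_HDF, at 2.11, was the only value past the threshold (red), and the intervals of Saa1 and Saa2 were the widest.

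Beside the group differences, the members were low together in 2 libraries. Library 1 of APAP_HDF was the lowest of its group for 10 of 10 members and among the 2 lowest of all 9 libraries for 10. Library 1 of APAP was the lowest of its group for 10 of 10 and among the 2 lowest of all for 9. At the other end, library 2 of APAP_MSC was the highest of all 9 for 5 members (Saa1, Saa2, Orm1, Orm2 and Hp). The 10 members together held 0.70% of all counts in library 1 of APAP, 0.904% in library 1 of APAP_HDF and 2.06% in library 2 of APAP_MSC. Library 1 of APAP was also the shallowest of all, at 53267231 counts, while library 1 of APAP_HDF had 57251845. Mitochondrially encoded genes took 7.16% of counts in library 1 of APAP and 6.46% in library 1 of APAP_HDF, within the 6.20% to 7.24% of all libraries. Hepatocyte markers summed to 116061 CPM in library 1 of APAP, the highest of all 9, and to 86892 CPM in library 1 of APAP_HDF, the lowest of all. The part of depth and of hepatocyte markers in the low acute phase values was not tested.

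Within groups, the SD of log2 CPM of Saa1 was 1.38 in APAP_MSC, 1.79 in APAP_HDF and 1.70 in APAP, and that of Saa2 was 1.65, 2.30 and 1.59 in the same groups. The median gene had 0.176, 0.218 and 0.230 there, so both genes varied more than at least 99.3% of tested genes in each group. Crp was among the steadier members, with 0.15 in APAP_MSC, 0.41 in APAP_HDF and 0.18 in APAP. For Saa3, Orm1, Orm2, Lcn2, Hp and Hpx the spread was largest in the APAP group, at 1.31, 1.02, 1.08, 1.25, 0.62 and 0.92.

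**Figure D4:**
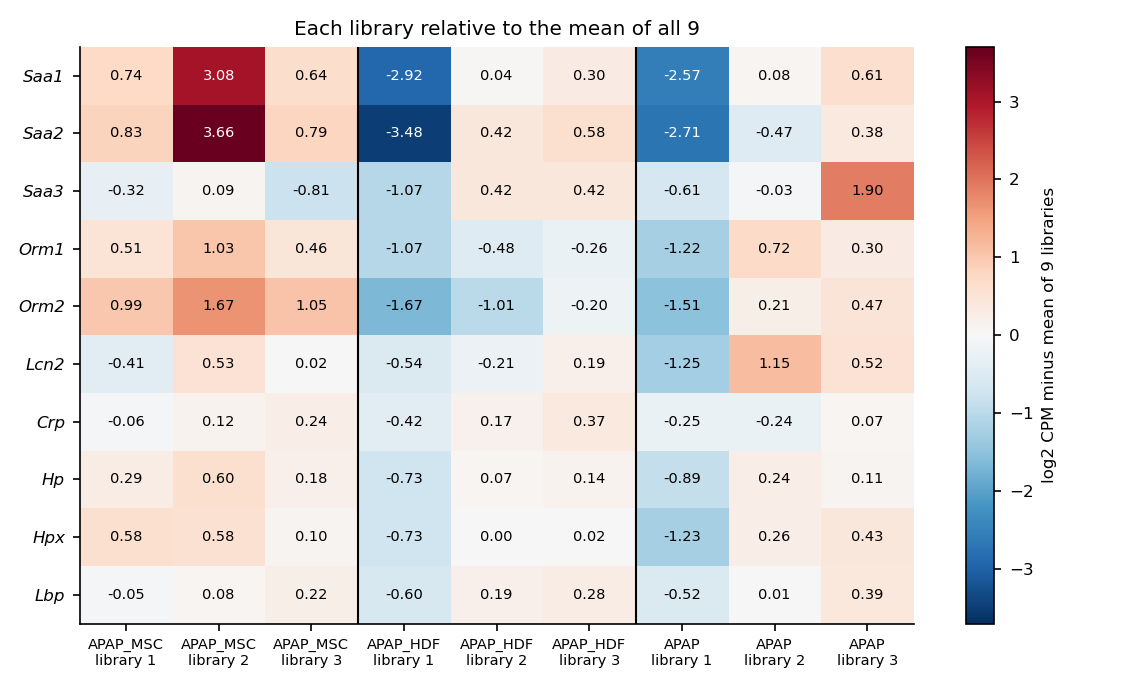
Log2 CPM of each acute phase gene in each library minus the mean of that gene over all 9 libraries, with APAP_MSC, APAP_HDF and APAP libraries from left to right. The first APAP_HDF and first APAP library were below the mean for all 10 genes, and Saa1 and Saa2 spanned from -3.48 to 3.66.

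Per length of transcript, the order of the members over all libraries was Hp (5113 CPM per kb), Hpx (3560), Orm1 (1719), Lcn2 (425), Saa1 (229), Crp (195), Saa2 (116), Orm2 (92.0), Lbp (58.3) and Saa3 (7.84). In CPM per kb Saa1 averaged 477 in APAP_MSC, 97.4 in APAP_HDF and 112 in APAP livers, and Crp 207, 203 and 175, so that Saa1 stood above Crp in the means of APAP_MSC and below it in the means of APAP_HDF and APAP. Its place rested on library 2 of APAP_MSC: without that library Saa1 averaged 197 and Crp 205 CPM per kb in APAP_MSC, and over the remaining 8 libraries Saa1 averaged 128 and Crp 193. Saa2 and Orm2, neighbours in this order, differed in every group by less than the larger of their SDs.

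The members that differed least over the 9 libraries were Crp and Lbp, with a root mean square difference of 0.18 on the centred log2 CPM scale, followed by Hp and Hpx (0.19). This measure is not scaled to how much a gene varies, so genes that vary little come out close. The root mean square of Saa1 itself was 1.70, of Orm1 0.75, of Lcn2 0.67 and of Hp 0.46. Hp and Lbp differed by 0.28, Orm1 and Hpx by 0.33, Saa1 and Saa2 by 0.38, and Orm1 and Orm2 by 0.47. Saa1 and Crp, by contrast, differed by 1.55. Among 9859 genes outside the members with a mean of at least 5 CPM, those nearest to Hp included Mtfp1 (0.14) and Fgl1 (0.14), which encodes a liver-secreted fibrinogen-like protein. Nearest to Orm1 were Pemt (0.36), a phosphatidylethanolamine methyltransferase gene, the constitutive serum amyloid gene Saa4 (0.36) and the sterol sensor gene Insig2 (0.37). Nearest to Lcn2 were Rapgef4os3 (0.29), Rdh9 (0.36) and Rapgef4 (0.39). Rapgef4os3 is named as an opposite-strand transcript of Rapgef4, and without strand information their reads cannot be told apart. For Saa1 even the nearest genes, G6pc (0.78), Nxpe2 (0.86) and Cyp2c29 (0.90), differed by far more than Saa2 did. These are descriptions over 9 libraries and carry no test.

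Among 27 other positive acute phase genes tested, 0 passed as higher and 5 as lower in APAP_MSC against APAP livers, where 2.83% and 3.54% of all genes did, with a median log2 fold change of -0.03 beside -0.01 over all tested genes. Hamp, which encodes the iron hormone hepcidin, averaged 183 ± 19.0 CPM in APAP_MSC and 986 ± 223 CPM in APAP livers (SD, n = 3 each), a log2 fold change of -2.43 ± 0.19 (edgeR adjusted p = 4.03e-04). The other 4 that fell were the metallothionein genes Mt1 (-1.27) and Mt2 (-1.61), the endotoxin co-receptor gene Cd14 (-1.74) and the serine protease inhibitor gene Serpina3m (-0.65). The 10 members had a median of 0.46 in the same comparison, and the 12 hepatocyte markers one of 0.36. Of the 27, 0 passed in APAP_HDF against APAP livers, with 3 at an unadjusted p under 0.05, where 8.78% of all genes were. In APAP_MSC against APAP_HDF livers 1 rose and 5 fell, where 4.9% and 3.99% of all genes did. The gene that rose was Saa4, a lipoprotein gene of the serum amyloid family that is expressed at baseline, with 288 ± 12.1 CPM in APAP_MSC and 134 ± 44.4 CPM in APAP_HDF livers (SD, n = 3 each; log2 fold change 1.11 ± 0.26, edgeR adjusted p = 0.0305). Those that fell included Hamp (-1.70), Cd14 (-2.13), Serpina3m (-0.46) and Mt1 (-1.16).

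Of 15 negative acute phase genes, 1 rose and 0 fell in APAP_MSC against APAP livers, where 2.83% and 3.54% of all genes did. In APAP_HDF against APAP livers 0 passed and 0 had an unadjusted p under 0.05, where 0% and 8.78% of all genes did. Between APAP_MSC and APAP_HDF livers 3 rose and 0 fell in APAP_MSC, where 4.9% and 3.99% of all genes did. The median log2 fold changes were 0.20, 0.02 and 0.17 in these comparisons, beside -0.01, -0.005 and -0.02 over all genes. Serpina6, which encodes corticosteroid binding globulin, averaged 22.9 ± 2.61 CPM in APAP_MSC, 1.34 ± 0.92 CPM in APAP_HDF and 1.96 ± 0.403 CPM in APAP livers (SD, n = 3 each). Its log2 fold change was 3.54 ± 0.42 in APAP_MSC against APAP livers (edgeR adjusted p = 0.0045) and 4.10 ± 0.43 in APAP_MSC against APAP_HDF livers (adjusted p = 0.00158). The antithrombin gene Serpinc1 (0.60) and the apolipoprotein gene Apoc3 (0.42) were the other 2 that rose in APAP_MSC against APAP_HDF livers.

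Upstream, 15 cytokine and receptor genes were tested, while Il6 and Osm did not pass the filter on low counts. In APAP_MSC against APAP livers 1 rose, Il1rap (0.45), a subunit of the interleukin 1 receptor, and 1 fell, Il22ra1 (-0.84), a subunit of the interleukin 22 receptor. Of all genes, 2.83% rose and 3.54% fell. An unadjusted p under 0.05 was reached there by 9 of the 15, against 22.9% of all genes, and of these only Il1rap was higher. The median of the 15 was -0.48, beside -0.01 over all genes. In the other 2 comparisons 0 passed. An unadjusted p under 0.05 was reached by 1 in APAP_HDF against APAP livers (8.78% of all genes) and by 6 in APAP_MSC against APAP_HDF livers (25.7% of all genes). Of 22 signalling and transcription factor genes, 1 rose and 0 fell in APAP_MSC against APAP livers, where 2.83% and 3.54% of all genes did. It was Cebpa, a C/EBP family member (0.59 ± 0.15, edgeR adjusted p = 0.0438). The family members Cebpb (-0.13, adjusted p = 0.85) and Cebpd (-0.52, adjusted p = 0.121) were lower there without passing. In APAP_MSC against APAP_HDF livers 0 rose and 1 fell, where 4.9% and 3.99% of all genes did. The gene that fell was the kinase gene Jak1 (-0.40 ± 0.11, edgeR adjusted p = 0.0399). Of the 22, 0 passed in APAP_HDF against APAP livers and 3 had an unadjusted p under 0.05, where 8.78% of all genes did.

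Of 14 genes for receptors and partners of the proteins, 4 fell and 0 rose in APAP_MSC against APAP livers, where 3.54% and 2.83% of all genes did. The 4 were Cd163 (-1.30), the macrophage receptor for haptoglobin bound to hemoglobin, the Fc receptor gene Fcgr1 (-1.61), the scavenger receptor gene Cd36 (-0.65), and Cd14, which is also in the list of positive acute phase genes. In APAP_HDF against APAP livers 0 passed and 2 had an unadjusted p under 0.05, where 8.78% of all genes did. In APAP_MSC against APAP_HDF livers 2 fell, Cd14 and the inhibitory Fc receptor gene Fcgr2b (-0.58), where 3.99% of all genes did. Markers of macrophages moved with these receptors: 12 monocyte and macrophage markers summed to 63.5 to 87.0 CPM in APAP_MSC, 88.8 to 133 CPM in APAP_HDF and 130 to 187 CPM in APAP livers. All 12 were detected in every library, and 7 of 12 fell in APAP_MSC against APAP livers, where 3.54% of all genes did. Fcgr1 is on both lists. Cd163 is also 1 of 7 Kupffer cell markers, which summed to 97.4 to 168 CPM in APAP_MSC, 67.1 to 147 CPM in APAP_HDF and 117 to 288 CPM in APAP livers, and Fcgr2b is 1 of 8 sinusoidal endothelium markers, which summed to 124 to 140 CPM in APAP_MSC, 166 to 225 CPM in APAP_HDF and 166 to 245 CPM in APAP livers. All 7 and all 8 were above 0 in every library. The part of these cells in the receptor values was not tested. Over all 5 lists, 12 genes passed in APAP_MSC against APAP livers and 11 in APAP_MSC against APAP_HDF livers. With library 1 or library 2 of APAP_MSC left out these counts became 2 and 3, and with library 1 of APAP_HDF left out 22 and 5. Over the same lists DESeq2 called 1 gene and limma-voom 0 in APAP_HDF against APAP livers.

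**Figure D5:**
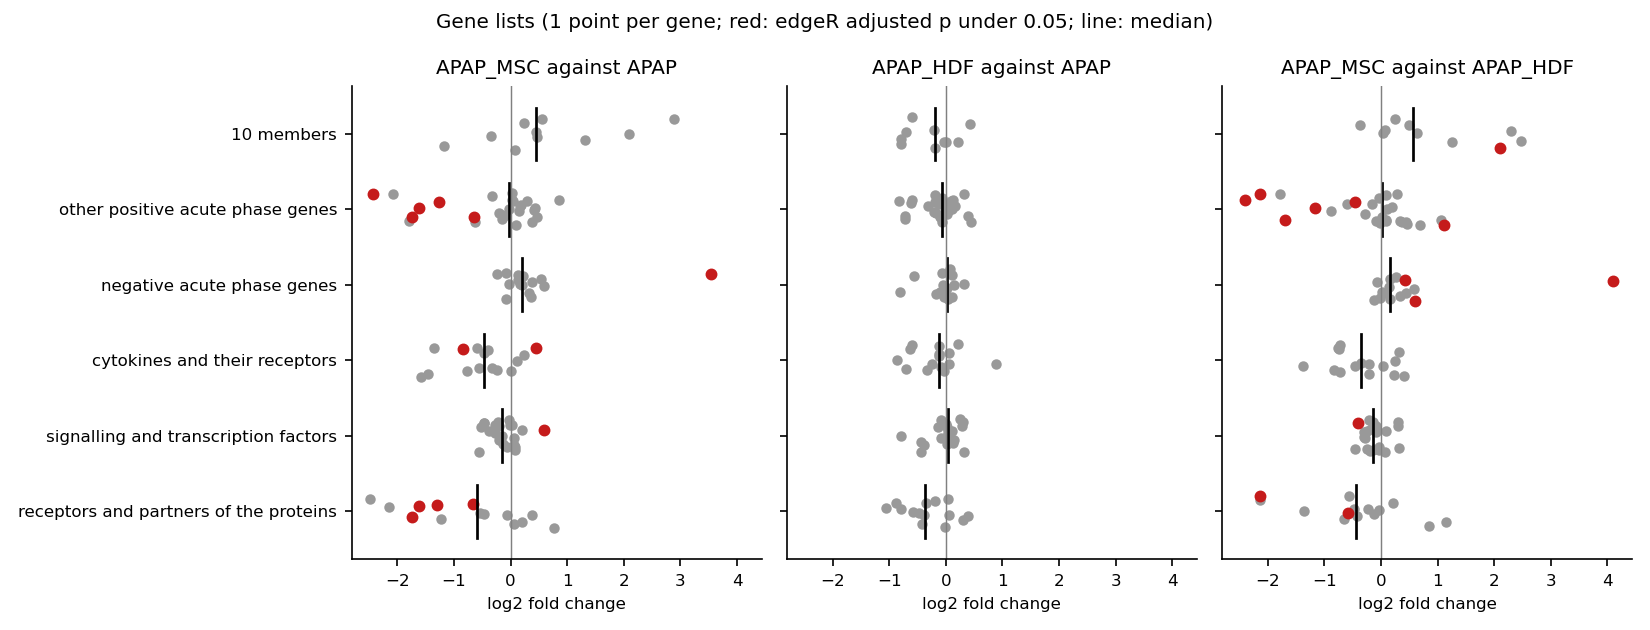
Log2 fold changes in the 3 comparisons for the 10 acute phase genes and 5 related gene lists, with 1 point per tested gene, red points past the edgeR threshold and a line at each median. In APAP_MSC against APAP the members' median was 0.46 and that of the other positive acute phase genes -0.03.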

How the data were processed

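RNA of 9 liver libraries was measured, with an mRNA-seq kit from Tecan named in the labels' protocols. The deposited raw table holds whole-number read counts per gene symbol, per the file headers and values. The second deposited table holds normalized counts, a signal that equals the counts over a size factor per library within 0.07% of the median-of-ratios factor, and it served only as an alternative for the levels. HISAT2, Subread and DESeq2 with builds named mm39 and GRCm39 appear in the submitters' processing notes without versions, and use of strand is not given in the sources used here. Depth was 53267231 to 63175573 counts, and 3 counts, the limit that a count of 0 allows, correspond to 0.0453 to 0.0567 CPM, for counting error only.

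From the counts, edgeR 4.0.16 in R 4.3.3 (filterByExpr, TMM factors 0.934 to 1.11, robust quasi-likelihood fit with the group as its only term over all 9 libraries) tested 17582 genes holding 99.966% of counts, two-sided, with Benjamini-Hochberg adjustment over all of them. The scripts were tested on simulated counts. Alternatives were DESeq2 1.42.0, limma-voom (limma 3.58.1), other scalings and filters, 2-group fits, left-out libraries and summed copies. Lengths and coding sequences came from GENCODE M21 on GRCm38 and promoters from RefSeq on GRCm38.p6, so no position on the authors' build is given. The members and gene lists were chosen with earlier results of these data known. The naming rule covered all 10 members, per list and comparison up to 6 genes past the test or else up to 2 by smallest p, and the 3 nearest genes to Saa1, Orm1, Lcn2 and Hp. Of the marker lists, those for hepatocytes, cholangiocytes, neutrophils, macrophages, Kupffer cells and sinusoidal endothelium are given where they move with a member or its receptors. Of the genes this rule takes, 2 are not reported here.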

Additional observations from a re-analysis of the deposited data

Results flagged for a closer look

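Orm2 is singled out because the infusion of MSC and the infusion of HDF differed from each other in a test of the difference itself. It had 108, 173 and 113 CPM in the APAP_MSC libraries, against 17.0, 27.1 and 47.3 CPM in the APAP_HDF libraries, and its log2 fold change was 2.11 (edgeR adjusted p = 0.0475). The call was lost in 8 of 9 fits that left out a single library, with no filter on low counts (adjusted p = 0.134) and with the Orm copies summed (adjusted p = 0.101), and the joint test of all 3 groups did not call Orm2 (adjusted p = 0.0816). Groups of 3 libraries are too small to test a single library for standing apart.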

How the results depend on the processing

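No paired analysis was possible because the columns of the tables carry no replicate number. Fits without 1 library, with an older edgeR form or without the libraries that stood apart keep the design otherwise. The older form and the joint removal of library 1 of APAP and library 1 of APAP_HDF, without or with library 2 of APAP_MSC, were chosen after seeing the data. Of 615 re-computed log2 fold changes of the members, 568 kept their direction and their side of the threshold, 10 lost the call (all Orm2 in APAP_MSC against APAP_HDF), 5 gained one (all Orm1 in the same comparison) and 32 turned their sign without passing. RLE and upper-quartile scaling and fits without robust moderation changed no member's call.

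In APAP_MSC against APAP livers, all genes called were 1121 in the main setting, 1915 with DESeq2, 317 without the 3 libraries named, and 97 (without library 2 of APAP_MSC) to 1753 (without library 1 of APAP_HDF) with 1 library left out. Genes of the lists called were 12, 25, 3 and 2 to 22. For APAP_HDF against APAP livers, all genes called were 0, 71 with DESeq2, 2 without the 3 libraries and 0 to 32 (without library 3 of APAP), and list genes 0 and 1 with DESeq2. In APAP_MSC against APAP_HDF livers, all genes called were 1563, 2349, 341 and 361 (without library 2 of APAP_MSC) to 1793 (without library 3 of APAP), and list genes 11, 20, 3 and 3 to 12. The joint test called 1230, 308 without the 3 libraries and 141 to 1597 with 1 left out.

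Members called in APAP_MSC against APAP_HDF livers were 1 in the main setting, 2 with DESeq2, 2 with only the 2 groups compared, 2 in both joint removals, 0 with no filter on low counts, which tests more genes, and 0 to 2 with 1 library left out. Orm2 had adjusted p = 0.134 with no filter and 0.101 with the copies summed, and 0.0055 to 0.0475 in the settings other than these and the single left-out libraries.

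Values that turned their sign did not pass, and some of them moved far. Saa3 in APAP_HDF against APAP livers went from -0.80 in the main fit to 0.35 without library 3 of APAP. Without library 1 of APAP and library 1 of APAP_HDF, Lbp had -0.12 in APAP_MSC against APAP and -0.15 in APAP_MSC against APAP_HDF livers, and Crp -0.17 in the second. Without library 2 of APAP_MSC as well, these were -0.11, -0.14 and -0.17, Orm1 had -0.032 in APAP_MSC against APAP and Lcn2 -0.18 in APAP_MSC against APAP_HDF livers. Hp had 0.011 with limma-voom in APAP_HDF against APAP livers, and there Saa2 had -0.018 with copies summed and Lbp -0.015 with upper-quartile factors, -0.000575 with no filter and -4.82e-05 with the strict filter. With 1 library left out, values in APAP_MSC against APAP ran from -0.76 to 0.22 for Lcn2 and -0.11 to 0.32 for Lbp. Those in APAP_HDF against APAP ran from -0.70 to 0.38 for Saa1, -0.055 to 1.15 for Saa2, -1.19 to 0.35 for Saa3, -0.30 to 0.20 for Hp, -0.54 to 0.10 for Hpx and -0.20 to 0.23 for Lbp. In APAP_MSC against APAP_HDF they ran from -0.0095 to 0.48 for Lcn2, -0.16 to 0.22 for Crp and -0.14 to 0.25 for Lbp. The cause was not tested. The SEs of Saa1 and Saa2, 1.08 to 1.28, limit which differences could pass.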
